A study of Mus musculus with 6 samples.

Results

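The genes described here are the cytosolic ribosomal protein genes, 92 protein-coding genes of the 22483 in the expression table of mouse muscle stromal cells. They were chosen by mouse gene symbol alone, as Rpl or Rps followed by a digit, the stalk genes Rplp0, Rplp1 and Rplp2, and Rpsa, with the ribosomal S6 kinase genes left out. Of the 92, 46 encode canonical proteins of the large subunit and 31 those of the small subunit, 9 are paralogs or other genes that share the name, and 6 carry a pseudogene symbol although they are annotated as protein coding. Cells came from hind limb muscle of Swiss white mice, either the untreated contralateral side (control) or the side given cardiotoxin, a snake toxin that destroys muscle fibers, at 20 uM and taken on day 3 (injury). Stromal cells negative for CD45, CD31 and CD11b were sorted on 2 surface proteins, CD140a (gene Pdgfra, a PDGF receptor) and Sca1 (gene Ly6a). The subpopulations were CD140a(-)/Sca1(+), CD140a(+)/Sca1(-) and CD140a(+)/Sca1(+), with 1 library for each subpopulation in each state, so 3 control and 3 injured libraries. The labels and methods name the tibialis anterior, whereas the Results of the study name other hind limb muscles, and how many mice went into a library is not given in the sources used here. Since no subpopulation had a second library in the same state, the 3 subpopulations served as the replicates of the injury comparison, and p-values measure the spread among them.

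The cytosolic ribosome is built from a large (60S) and a small (40S) subunit, and its proteins are made in near-equal amounts and assembled on ribosomal RNA in the nucleolus. Their mRNAs are short and abundant and begin with a pyrimidine run at the cap, the 5' terminal oligopyrimidine (TOP) motif, through which mTORC1 and LARP1 control their translation. Many of the promoters hold sites for ETS family factors. Ribosomal protein genes are among the most expressed of most cells, and translation is one of the main energy costs of a cell that begins to grow or secrete matrix. The 92 genes lie on 20 chromosomes, and 32 of them (34.8%) hold an annotated noncoding RNA within the gene, as do 6.53% of the protein-coding genes in the table.

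Start regions were taken from RefSeq (GRCm38.p6), which gave a window for 66 of the 92 genes. The letters CTTTC, a short pyrimidine run of the kind found at TOP mRNA starts, were looked for on the transcript strand from 20 bases before to 30 bases after the annotated start. They were present in 23 of 66 members (34.8%) and in 7.66% of all 27025 genes with a window. The ETS core CGGAAG, searched on both strands from 250 bases before to 50 after the start, was present in 44 of 66 members (66.7%) and in 18.8% of all genes. A match of one can share at most 1 base with a match of the other, and both were chosen with the sequences in view. Windows of 40 bases before and 20 bases after the start are given for the most abundant members (Rplp2 and Rpl27a). They are also given for Rpl26 and Rpl35, which passed only an unadjusted test between subpopulations in the main fit, described below. The rest are of a tunnel protein (Rpl4), a paralog of another (Rpl39l), and Rps27 with its intronless copy Rps27rt. Capitals mark CTTTC, or CGGAAG in either orientation.
Rplp2 (chr7:141447611-141447670, + strand): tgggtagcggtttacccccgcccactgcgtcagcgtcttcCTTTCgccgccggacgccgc
Rpl27a (chr7:109519155-109519214, + strand): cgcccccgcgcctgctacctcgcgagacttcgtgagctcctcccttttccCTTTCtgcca
Rpl26 (chr11:68901526-68901585, + strand): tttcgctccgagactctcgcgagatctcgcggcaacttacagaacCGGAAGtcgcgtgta
Rpl35 (chr2:39005112-39005171, - strand): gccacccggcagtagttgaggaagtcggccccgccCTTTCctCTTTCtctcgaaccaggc
Rpl4 (chr9:64173347-64173406, + strand): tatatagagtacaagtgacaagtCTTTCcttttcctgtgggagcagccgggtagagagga
Rpl39l (chr16:10170188-10170247, + strand): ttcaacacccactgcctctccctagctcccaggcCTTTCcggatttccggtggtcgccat
Rps27 (chr3:90213629-90213688, - strand): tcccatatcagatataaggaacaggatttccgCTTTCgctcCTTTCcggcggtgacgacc
Rps27rt (chr9:114982720-114982779, - strand): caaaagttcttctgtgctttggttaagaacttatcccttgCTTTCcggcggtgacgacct
The windows of Rps27 and Rps27rt shared an unbroken run of 19 bases, which lies at or after the annotated start of both. A match is a description of these letters and not a measured site.

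Reads were QuantSeq 3' tags, and no scaling by transcript length was added here. The deposited log2 values were turned back into normalized counts, and levels below are normalized counts unless a log2 change is named. Values for 3 libraries always stand in the order CD140a(-)/Sca1(+), CD140a(+)/Sca1(-), CD140a(+)/Sca1(+). Estimated depth ran from 2094354 to 14173590 reads, a 6.77-fold range. The injured CD140a(+)/Sca1(-) library was the shallowest and stood apart, with 69.1% of genes listed at 0 against 28.2% to 39.0% in the others. In it 3 reads equal 2.94 normalized counts. The control CD140a(+)/Sca1(+) library was close to it in depth, at 2346692 reads, but had 33.4% of genes at 0. Why these 2 libraries differ was not tested. The 4 stromal and sort markers were detected in all 6 libraries. Their sum was 0.105% to 0.483% of counts in the controls and 0.79% to 1.02% after injury. Pdgfra went against its label in the controls, at 211, 33.6 and 26.3, with the highest level in the CD140a(-) library. After injury Pdgfra stood at 335, 203 and 1240.01, so that the CD140a(-) library was still above the CD140a(+)/Sca1(-) library. Ly6a was at 5850.02, 70.4 and 253 in controls and 1177, 2.09 and 4099 in injured libraries, lowest in the Sca1(-) library of each state.

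Most members were deeply sampled: 78 of 92 had the equivalent of at least 100 reads in every library. Rpl3l, the striated muscle paralog of Rpl3, and Rpl36-ps4 were listed at 0 in all 6 libraries, and the other 90 passed the filter on low values. As all reads come from the 3' end, near-identical copies matter: 68 members shared at least 98% of 100 or more of their last 200 transcript bases with another annotated gene, and 24 had no such copy. Values of genes with 1 annotated transcript were whole reads in 99.8% of cases, those of genes with at least 5 transcripts in 19.5%. Among members, 35 of 92 were on whole reads in all 6 libraries. The values of the other 57 hold a factor of unknown size besides the read count, and whether transcript length entered it is not known, so their levels are not strictly comparable between genes and results on whole reads are named as such below.

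Together the 92 genes held between 9.05% and 11.4% of all normalized counts in every library and moved with injury by less than 1.5-fold in each subpopulation. Their share was 10.6%, 10.6% and 9.05% in the control libraries and 9.82%, 10.7% and 11.4% in the injured ones. After injury the share was 0.928, 1.006 and 1.26 times that of the matched control. The 95% Wilson intervals, which cover counting error only, were at most 0.0419 percentage points to either side. Means were 10.1% ± 0.899 (SD, n = 3) in control and 10.7% ± 0.814 (SD, n = 3) in injury, so the states differed by less than the spread among subpopulations. As a score over chosen genes the share was not tested. In bulk samples a change in cell makeup and a change in RNA per cell cannot be told apart.

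**Figure D1:**
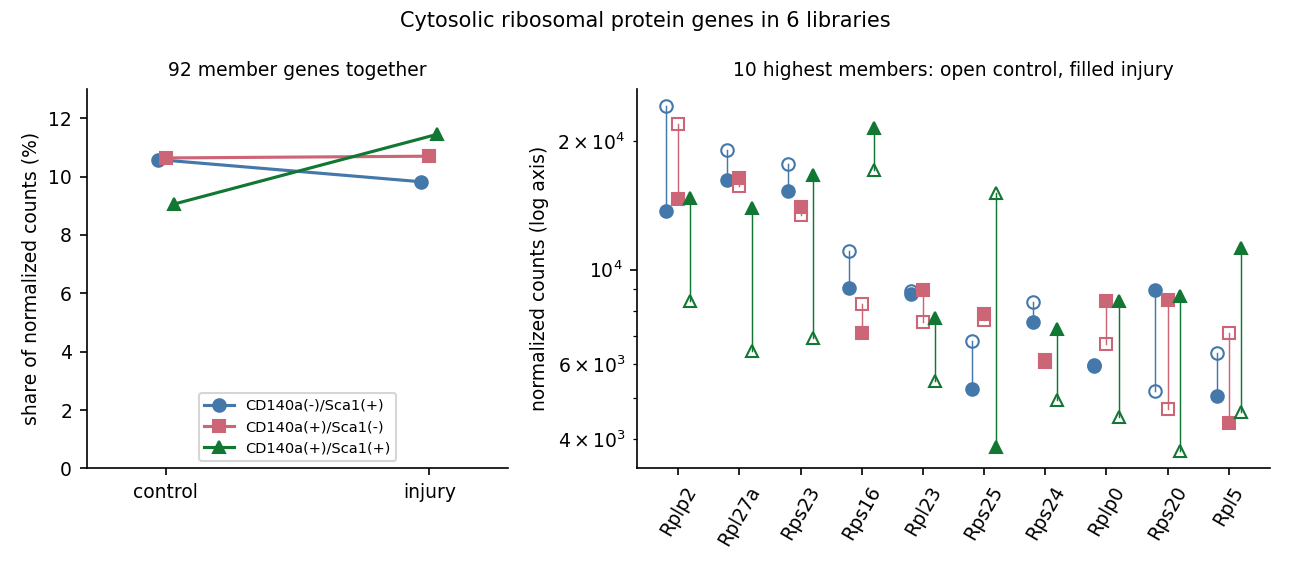
Left, share of normalized counts held by the 92 genes (%) in control and injured libraries, 1 line per subpopulation. Right, normalized counts (log axis) of the 10 members with the highest mean, open symbols for control and filled for injury; the CD140a(+)/Sca1(+) share moved from 9.05% to 11.4%, and in that pair Rps25 was lower after injury while the other 9 genes were higher.

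The control CD140a(+)/Sca1(+) library, which held the lowest share, also had the highest sums of endothelial and red blood cell markers. The summed share of 7 endothelial markers was 0.152%, 0.140% and 1.49% in the controls and 0.00486%, 0.00810% and 0.0199% after injury, when 1, 5 and 2 of the 7 were at 0, respectively. Fabp4, a fatty acid binding protein that fat cells also make, gave most of it, at 2318, 2590.1 and 29146 in the controls. The other 6 summed to 0.0492%, 0.0161% and 0.0827% in the controls. Pecam1, which encodes CD31, was at 47.4, 19.8 and 105 there, and Kdr, a VEGF receptor, was highest in CD140a(-)/Sca1(+) at 243, 28.9 and 154. The 4 red blood cell markers summed to 0.0221%, 0.0801% and 0.337% in controls and to at most 0.0194% after injury. The study reports that sort enrichment was poorest for this same control CD140a(+)/Sca1(+) population. The part of these cells and of sort purity in the member share was not tested.

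Counts within the group were concentrated in few genes. The 10 members with the highest mean level were Rplp2, Rpl27a, Rps23, Rps16, Rpl23, Rps25, Rps24, Rplp0, Rps20 and Rpl5. Rplp2, an acidic protein of the stalk that recruits translation factors, stood at 24178, 21933 and 8449 in the control libraries and 13749, 14672 and 14758 in the injured libraries. The control level was lower in CD140a(+)/Sca1(+) than in the other subpopulations, and the 3 injured libraries were close together. Rpl27a, a large subunit protein, was at 19079, 15699 and 6451 in the control libraries and 16209, 16416 and 13978 in the injured libraries. Rps23, a protein of the decoding center counted in whole reads, was at 17703, 13437 and 6905 in the control libraries and 15327, 14049 and 16650.3 in the injured libraries. All 3 genes shared the low value of the control CD140a(+)/Sca1(+) library. Rps16, a small subunit protein whose tail reaches the tRNA sites, was instead highest in CD140a(+)/Sca1(+), at 11052, 8308 and 17149.9 in the control libraries and 9038, 7084 and 21495 in the injured libraries, again in whole reads. Rps25, a small subunit protein needed for some cap-independent initiation, was highest in control CD140a(+)/Sca1(+) at 6802, 7627 and 15135 and then lowest after injury in the same subpopulation at 5233, 7865 and 3834. Rpl23, at the interface of the subunits, ranged from 5488 to 8976 and Rps24, a small subunit protein with alternatively spliced ends, from 4931 to 8394. Rps18 lay at the other end of the canonical genes, with at most 55.8 normalized counts in any library, although every ribosome carries its protein. The Rps18 values were not whole reads. Its 3' end is shared with 3 other annotated genes, so reads could be split between them and its level is uncertain. Levels here are tag counts and not protein amounts.

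The least variable member with a mean of at least 100 was Rpl28, a large subunit protein, at 1977, 1709 and 1578 in the control libraries and 1549, 1709 and 1997 in the injured libraries, a ratio of 1.29 between its highest and lowest library. Over the 82 members at that level the median ratio was 2.33, and the highest was 85.1 for Rps27rt. Rank orders of the 77 canonical genes were alike between libraries, with Spearman rho from 0.813 to 0.970 across genes, a description in which depth and transcript sequence are shared. The highest value was between the states of CD140a(-)/Sca1(+) and the lowest between control CD140a(+)/Sca1(+) and injured CD140a(+)/Sca1(-).

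After injury the median member was lower in CD140a(-)/Sca1(+), near its control in CD140a(+)/Sca1(-) and higher in CD140a(+)/Sca1(+). Within a pair, 1 library is compared with 1 library, so folds carry no test. The median log2 change of the 90 members was -0.25, 0.05 and 0.52 in the 3 pairs, where all 15532 genes tested had medians of -0.23, -0.76 and 0.11. The 773 tested genes with a mean of at least 500, many members included, had medians of -0.14, -0.02 and 0.27, nearer to the members in the second pair and in the third. Large and small subunit genes stood side by side: -0.23 and -0.29 in the first pair, 0.09 and 0.06 in the second, and 0.55 and 0.54 in the third. Members on whole reads had medians of -0.23, -0.18 and 0.33.

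**Figure D2:**
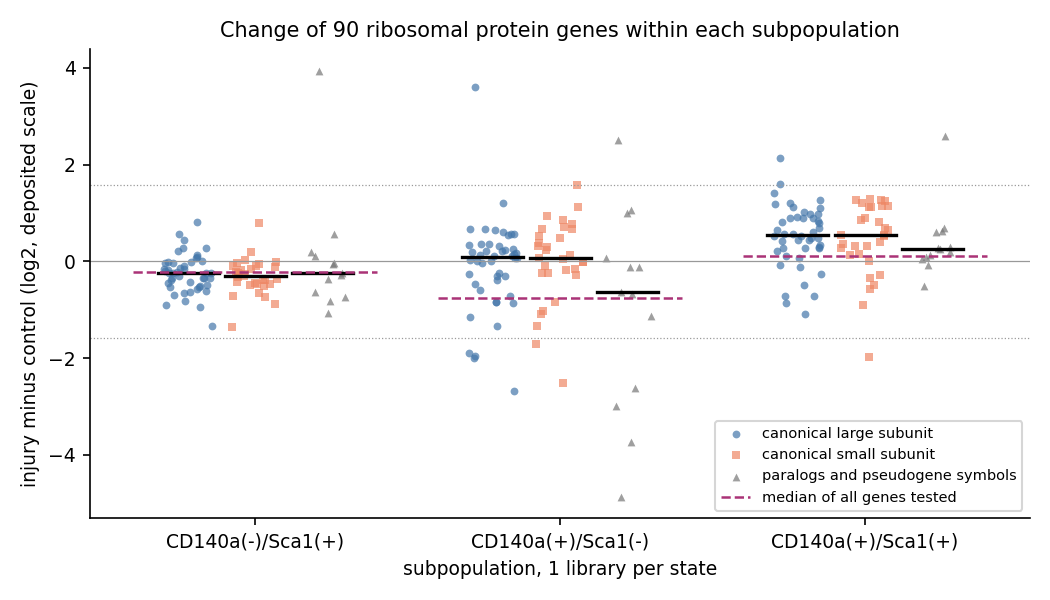
Log2 change from control to injury within each subpopulation for the 90 tested members, on the deposited scale; black bars are medians of each class, the dashed line is the median of all genes tested, and dotted lines mark 3-fold. Both subunits lie close to 0 in CD140a(-)/Sca1(+) and CD140a(+)/Sca1(-) and above it in CD140a(+)/Sca1(+), with medians of 0.55 and 0.54.

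Between 1 and 13 of the 90 members differed 3-fold within a pair, counted on the deposited log2 scale. In CD140a(-)/Sca1(+) 1 of 90 was at least 3-fold higher and 0 lower, against backgrounds of 1.97% and 4.35% of all genes tested. In CD140a(+)/Sca1(-) 3 were higher and 10 lower (backgrounds 8.31% and 29.4%). In CD140a(+)/Sca1(+) 3 were higher and 1 lower (backgrounds 10.4% and 6.07%). The higher ones were Rps12-ps3 in the first pair, Rpl29, Rpl36a-ps1 and Rps3a1 in the second, and Rpl38, Rpl39 and Rpl39l in the third. The lower ones were Rpl10, Rpl22l1, Rpl24, Rpl35, Rpl36, Rps14, Rps21, Rps12-ps3, Rps19bp1 and Rps27rt in the second pair and Rps25 in the third. In all, 17 members reached 3-fold in some pair. As a ratio of normalized counts, Rps18, at few counts, was also past 3-fold, at 0.331 times its control in the second pair and 3.28 times in the third. Among the 773 genes with a mean of at least 500 the shares 3-fold higher and lower were 4.4% and 4.53% in the first pair, 9.96% and 11.3% in the second, and 15.5% and 10.2% in the third. Of the 10 lower members of the second pair, Rpl10, Rpl22l1, Rpl35, Rpl36, Rps12-ps3 and Rps19bp1 had a mean under 500. The 773 genes are thus not matched in level to these 10 members as a whole. Changes under 1.5-fold were seen in 70, 50 and 45 of 90 members. Among the same 773 genes 58.7%, 40.9% and 35.3% stayed under 1.5-fold, and for members the shares were 77.8%, 55.6% and 50%. In all 3 pairs, 19 members and 1190 of all genes tested (7.66%) stayed under 1.5-fold.

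Small groups of members by place in the ribosome are described next, without a test, mainly for the CD140a(+)/Sca1(+) pair. All 3 stalk genes were at least 1.5-fold higher there: Rplp0, the stalk base, was 1.87-fold the control, Rplp1 2.31-fold and Rplp2 1.75-fold. Both proteins of the 5S RNP, which also bind MDM2 when ribosome assembly is disturbed, were above 1.5-fold as well. Rpl5 was at 6385, 7111 and 4631 in the control libraries and 5060.4, 4360.2 and 11225 in the injured libraries, and Rpl11 at 4848, 4774 and 2473 in the control libraries and 4374, 4831 and 4865 in the injured libraries. Neither gene reached 1.5-fold in the CD140a(-)/Sca1(+) pair. Of the 9 genes around the peptide exit tunnel, 7 stayed within 1.5-fold in each pair, though not always the same ones, and 1 was 1.5-fold higher in the CD140a(+)/Sca1(+) pair. The genes at the mRNA entry, Rps2 and Rps3, were at 0.674 and 0.711 times the control in that pair. Of 21 genes mutated in Diamond-Blackfan anaemia, an inherited failure of red cell production, 10 were at least 1.5-fold higher in the CD140a(+)/Sca1(+) pair, against 1 in CD140a(-)/Sca1(+) and 3 in CD140a(+)/Sca1(-). For comparison, 3 and 17 of all 90 members were 1.5-fold higher in those 2 pairs, beside 14.2% and 16.7% of all genes tested. In all, 39 members were 1.5-fold higher in the CD140a(+)/Sca1(+) pair, beside 34.7% of all genes tested and 38.6% of the 773 genes with a mean of at least 500.

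The largest folds within pairs, among members with at least 100 normalized counts, came from the pair with the shallow library. Rpl29, a small basic protein of the 60S subunit, stood at 35.9, 45.8 and 35.3 in the control libraries and 28.98, 679 and 55.9 in the injured libraries, so that only the injured CD140a(+)/Sca1(-) library was high, at 14.8-fold its control. Its 3' end is shared with 27 other annotated genes, more than for any other member, and its values were not whole reads. In the opposite direction Rps27rt, the intronless copy of Rps27, was lowest in that library, at 749.6, 534 and 752 in the control libraries and 352, 8.83 and 709.5 in the injured libraries. That is 9 reads where its control had 832. Rpl35, at the rim of the exit tunnel, was at 391, 385 and 756 in the control libraries and 203, 51.03 and 697 in the injured libraries. Its injured CD140a(+)/Sca1(-) level was 0.133 times the control, in whole reads. The 3' end of Rpl35 is shared with 2 other annotated genes that have values of their own, so reads could be split between them. Rps3a1, a small subunit protein near the mRNA exit, was 3.07 times its control in the same pair. In CD140a(-)/Sca1(+) the largest folds were smaller: Rps14, described below, was 0.384 times, Rpl7a, a large subunit protein, 0.393 times and Rpl39 1.76 times the control. In CD140a(+)/Sca1(+) the extremes were Rpl38, known for its part in translating Hox mRNAs, at 4.49 times the control, and Rps25, at 0.253 times. Rpl7 was at 2.697 and Rpl15 at 0.474 times the control there, both being large subunit proteins.

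Across the 3 pairs 1 of 90 members passed the injury test, and it fell. The call needed a limma p under 0.05 and a 3-fold change, with subpopulation as a block. Over all genes tested 2.3% were called higher and 3.46% lower, so 0 members higher and 1 lower is below the background in both directions. Among the 773 genes with a mean of at least 500 the shares were 6.21% and 4.92%. At an unadjusted limma p under 0.05 alone the same 1 member passed, where the background was 7.99%. No gene of the table had a limma adjusted p under 0.05 (0.0%), the lowest being 0.192. The median fitted change of the members was 0.07 on the log2 scale with an SD over genes of 0.57, that of all genes tested was -0.33, and that of the 773 genes was -0.0064. Half-widths of the 95% intervals had a median of 1.25 (2.37-fold) and were at least 1.15 (2.22-fold), so that changes under 2.22-fold could not reach p under 0.05 in any member.

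**Figure D3:**
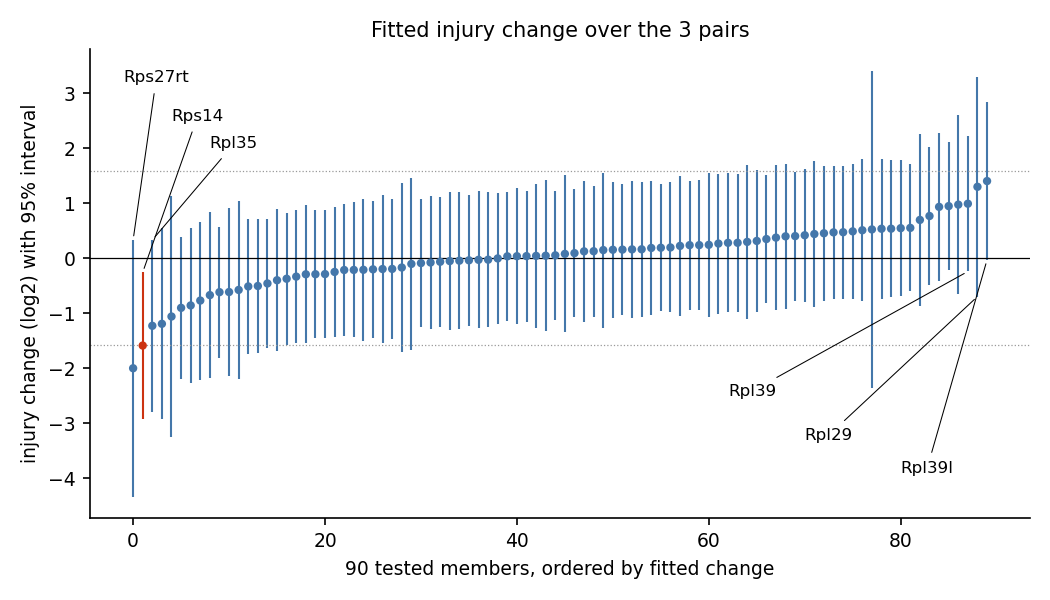
Fitted log2 change with injury over the 3 pairs and its 95% interval for each of the 90 tested members, ordered by change; dotted lines mark 3-fold. The interval excludes 0 for 1 gene, Rps14 (red).

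Rps14 encodes a protein of the small subunit platform, whose loss of 1 copy underlies the anaemia of the 5q- syndrome. It stood at 962, 912 and 1157 in the control libraries and 369, 150.2 and 615 in the injured libraries. Every injured library lay below every control, and the injured levels were 0.384, 0.165 and 0.531 times their controls. The fitted change was -1.59 ± 0.55 (SE; 95% interval -2.92 to -0.26, limma adjusted p = 0.568). Without the shallow CD140a(+)/Sca1(-) pair the change was -1.13, and without the CD140a(-)/Sca1(+) pair -1.71, and neither passed. Rps14 values were not whole reads, so a fit with genes on whole reads alone does not contain Rps14 and cannot test its call. In that fit 0 of 33 members passed in limma, also at p under 0.05.

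Of the 90 tested members, 9 had control and injured libraries that did not overlap, against 15.4% of all genes tested. They included Rpl4, Rpl30, Rpl39, Rps12 and Rps20 with injured libraries above all controls, and Rpl9, Rpl37 and Rps14 below. Rps20, a protein of the small subunit head (chr4:3831334-3835665, - strand, GRCm38), was at 5192, 4708 and 3745 in the control libraries and 8965, 8503 and 8665 in the injured libraries. Its folds were 1.73, 1.81 and 2.31 and its fitted change 0.95 ± 0.48 (SE; 95% interval -0.22 to 2.12, limma adjusted p = 0.653). Rpl39, among the smallest ribosomal proteins (chrX:37082520-37085402, - strand, GRCm38), lines the exit tunnel and was at 891, 1008 and 761 in the control libraries and 1568, 1496 and 2338 in the injured libraries. Its fitted change was 0.99 ± 0.51 (SE; 95% interval -0.24 to 2.22, limma adjusted p = 0.655). Rpl4, whose loop reaches into the same tunnel, was at 1779, 2529 and 2436 in the control libraries and 2638, 3992 and 3297 in the injured libraries, with folds of 1.48, 1.58 and 1.35. These 3 genes were counted in whole reads, and no near-identical 3' copy of any was found. The interval of Rpl4 was -0.60 to 1.71, and those of all 3 held both 0 and a 3-fold increase.

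**Figure D4:**
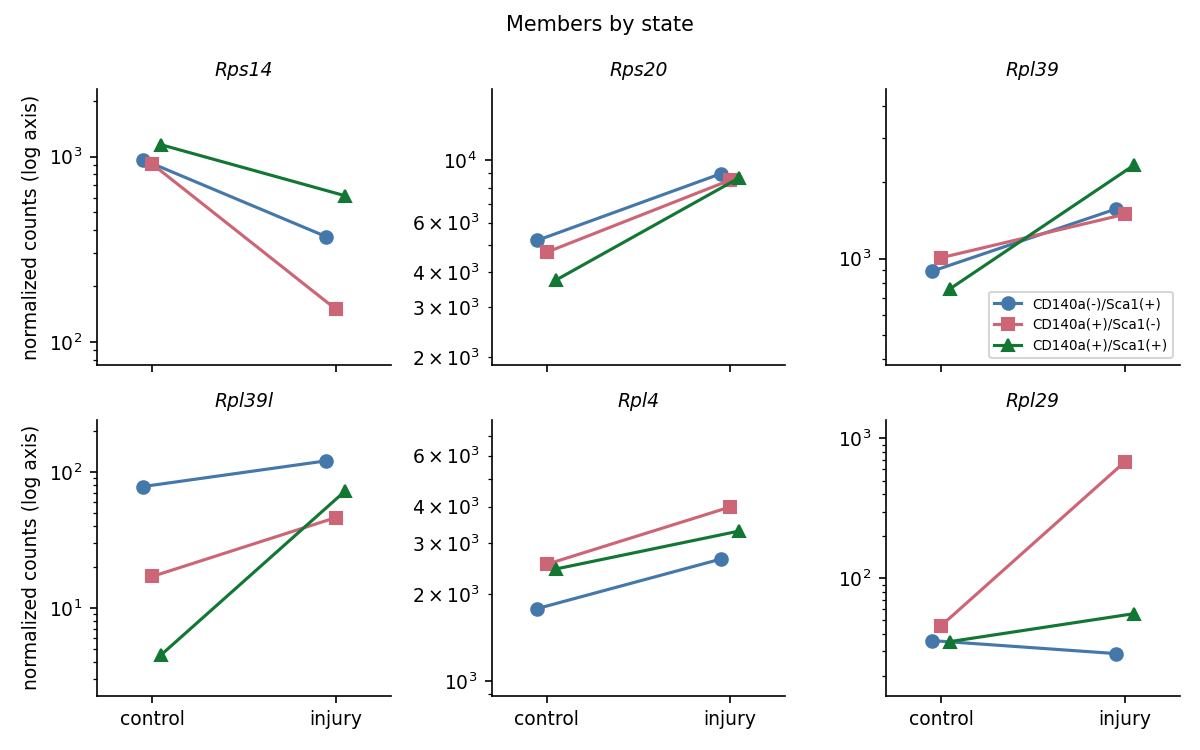
Normalized counts (log axis) of 6 members in control and injured libraries, 1 line per subpopulation. Rps14 is lower and Rps20, Rpl39, Rpl39l and Rpl4 are higher after injury in each subpopulation, whereas Rpl29 is high in 1 injured library.

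Over all 3 pairs, 11 members were higher after injury in every pair and 12 lower in every pair, beside 7.92% and 20.2% of all genes tested. Among the 773 genes with a mean of at least 500 the shares were 18.1% and 18.9%, so neither member count is above them. Rpl39l, the autosomal paralog of Rpl39 that is best known from testis, was among the 11 higher members. Its levels were 78.1, 17.04 and 4.53 in the control libraries and 121, 46.2 and 72.1 in the injured libraries, from 5.13 read equivalents in the control CD140a(+)/Sca1(+) library. The fitted change was 1.40 ± 0.59 (SE; 95% interval -0.03 to 2.84, limma adjusted p = 0.627). Rpl35, lower in all 3 pairs, had a fitted change of -1.23 ± 0.64 (SE; 95% interval -2.79 to 0.33, limma adjusted p = 0.655), and Rps27rt of -2.002 ± 0.96 (SE; 95% interval -4.34 to 0.33, limma adjusted p = 0.649). Rpl29 gave 1.30 ± 0.82 (SE; 95% interval -0.70 to 3.30, limma adjusted p = 0.682) on the strength of 1 library, and without that pair 0.15. Likewise Rps27rt gave -0.57 and Rpl35 -0.51 without the CD140a(+)/Sca1(-) pair. None of the 4 passed.

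Few members were called between subpopulations, and most of those were higher in CD140a(+)/Sca1(+). Each subpopulation, with its 2 libraries, was compared with the mean of the other 2 in the same limma fit. In CD140a(+)/Sca1(+) 3 of 90 members were called higher (background 1.32%; at limma p under 0.05 alone also 3, background 1.84%) and 0 lower (background 0.47%; at limma p under 0.05 alone 1 lower, background 0.715%). In CD140a(+)/Sca1(-) 0 were called higher (background 0.657%; 0 also at limma p under 0.05 alone, background 0.934%) and 1 lower (background 3.73%; at limma p under 0.05 alone 2 lower, background 4.9%). In CD140a(-)/Sca1(+) 0 were called in either direction (backgrounds 1.33% higher and 0.283% lower), with 1 in each direction at limma p under 0.05 alone (backgrounds 1.83% higher and 0.438% lower). Among the 773 genes with a mean of at least 500, 4.4% were called higher in CD140a(+)/Sca1(+), and the 3 of 90 members called there are not above that share. Rpl35, 1 of these 3 members, had a mean of 414 and lies outside that set.

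Rpl26 (chr11:68901583-68906989, + strand, GRCm38), a large subunit protein near the exit site that also binds p53 mRNA, differed most. Its level was 596, 471 and 5695 in the control libraries and 589, 706 and 3475 in the injured libraries. Both CD140a(+)/Sca1(+) libraries stood apart from the other 4, which lay between 471 and 706. The difference was 2.90 ± 0.55 (SE; 95% interval 1.56 to 4.24, limma adjusted p = 0.986), and leaving out either other pair moved it only between 2.88 and 2.92. Rpl26 values were not whole reads, and 5 other annotated genes share its 3' end. In the contrasts of the other subpopulations it gave -1.42 and -1.48, which restate the same difference.

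Rpl35 was called as well, at 1.78 ± 0.68 (SE; 95% interval 0.12 to 3.43, limma adjusted p = 0.986), although the control libraries of the other 2 subpopulations were at 391 and 385 and the injured ones were farther below. Without the CD140a(+)/Sca1(-) pair the Rpl35 difference was 1.32, under 3-fold. Rps29, a zinc-binding small subunit protein, went the other way at 2802, 1475 and 655 in the control libraries and 2611, 2421 and 1195 in the injured libraries. It was lowest in CD140a(+)/Sca1(+) in both states, by -1.34 ± 0.53 (SE; 95% interval -2.64 to -0.04, limma adjusted p = 0.986), under 3-fold.

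**Figure D5:**
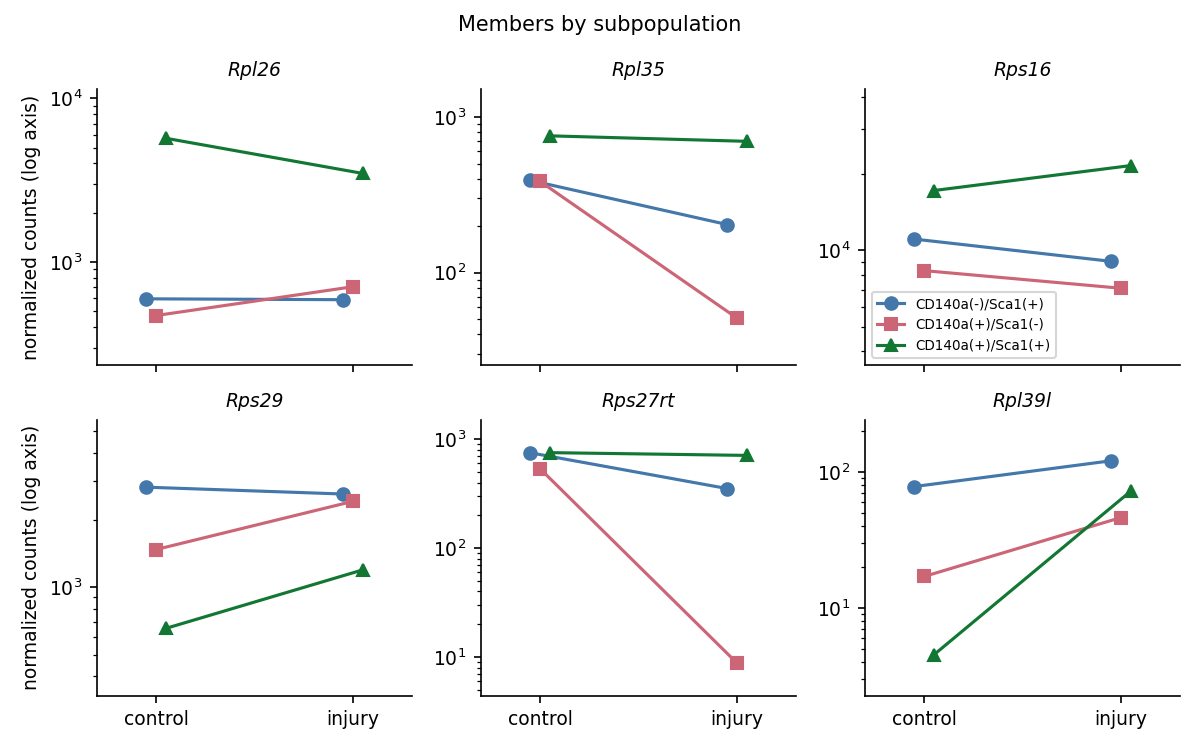
Normalized counts (log axis) of 6 members in control and injured libraries, 1 line per subpopulation. Rpl26 and Rps16 are highest and Rps29 lowest in CD140a(+)/Sca1(+) in both states, and Rps27rt is at 8.83 in 1 injured library.

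The single member called in CD140a(+)/Sca1(-) was Rps27rt, at -2.62 ± 1.02 (SE; 95% interval -5.10 to -0.15, limma adjusted p = 0.615). Its control level there was 534 beside 750 and 752, so the call rests on the injured library with 9 reads. Rpl29, at 2.01 in the same contrast, rests on the same library. Rpl39l was higher in CD140a(-)/Sca1(+) by 1.56 ± 0.62 (SE; 95% interval 0.05 to 3.08, limma adjusted p = 0.998), and was not called for being under 3-fold. The endothelial and red blood cell marker sums were highest in CD140a(+)/Sca1(+) in both states, as was Rpl26. After injury they were 0.0199% and 0.0194% there, against at most 0.00810% and 0.000212% in the other injured libraries. Their part in the Rpl26 difference was not tested.

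Paralogs and same-named genes stood mostly at lower levels, with medians of 78.1, 66.9 and 24.1 in the controls and 121, 8.83 and 72.1 after injury, where canonical large subunit genes had 1911, 1646 and 1273 and 1503, 1549 and 2168. Rps27l, a p53-induced paralog of Rps27, was at 299.98, 289 and 139.9 in the control libraries and 165, 306 and 151 in the injured libraries. Rpl36al, the autosomal paralog of Rpl36a, was at 163, 322 and 385 in the control libraries and 125, 140.02 and 475 in the injured libraries. Rpl7l1, a paralog of Rpl7 in nucleolar precursors of the 60S subunit, was at 723, 743 and 314 in the control libraries and 465, 472 and 493 in the injured libraries, in whole reads. Within this class these were the more abundant genes, with Rps27rt. Rpl22l1, the paralog of Rpl22, was at 25.7, 66.9 and 24.1 in the control libraries and 24.3, 0 and 41.8 in the injured libraries, and Rps19bp1, which binds Rps19 and SIRT1 and is no ribosomal protein, at 17.8, 35.97 and 15.01 in the control libraries and 7.31, 0 and 17.5 in the injured libraries. The injured CD140a(+)/Sca1(-) library had no read of either. Their fitted changes, which include that value at the floor of the scale, were -1.06 ± 0.90 (SE; 95% interval -3.26 to 1.14, limma adjusted p = 0.715) and -1.19 ± 0.71 (SE; 95% interval -2.93 to 0.54, limma adjusted p = 0.681). Rpl10l, a testis paralog of Rpl10, was at most 1.28 in any library.

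Where a pseudogene symbol and its parent share a near-identical 3' end, the counting could split reads between them, and their values are uncertain. Rpl10-ps3, in whole reads, was at 837, 946 and 609.97 in the control libraries and 913, 1904 and 747 in the injured libraries, above its parent Rpl10 in every library. Rpl10, the late-joining protein at the peptidyl transferase center, stood at only 131, 146 and 94.5 in the control libraries and 122, 28.5 and 64.6 in the injured libraries. The sum of both was 968, 1093 and 705 in controls and 1035, 1932 and 812 after injury, so that in the CD140a(+)/Sca1(-) pair the sum was 1.77-fold the control while Rpl10 alone was 0.195 times it. Rpl36a-ps1 was at 119, 70.02 and 37.96 in the control libraries and 95.9, 454 and 67.8 in the injured libraries, with a fitted change of 0.98 ± 0.67 (SE; 95% interval -0.65 to 2.60, limma adjusted p = 0.688). Together with Rpl36a its injured CD140a(+)/Sca1(-) level was 1.99-fold the control. Rps27 and Rps27rt together were 0.84, 0.69 and 1.46 times their controls, where Rps27rt alone was 0.47, 0.0165 and 0.943 times. Rpl9-ps6 was at 225, 181 and 301 in the control libraries and 188, 165 and 209.8 in the injured libraries, and Rpl9-ps1 had at most 12 reads in any library.

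Some proteins of the ribosome lie outside the symbol rule. Rack1, the scaffold on the small subunit, was at 4523, 4443 and 2322 in the control libraries and 4880.2, 3264 and 3752 in the injured libraries. Fau, which encodes Rps30 fused to a ubiquitin-like protein, was at 1464, 1271 and 735 in the control libraries and 1115, 545 and 1236 in the injured libraries. Their fitted injury changes were 0.12 and -0.28, and neither was called.

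Among other genes of the translation pathway, 2 initiation factors were called with injury. Of 8 elongation factors tested, 0 were called or had a limma p under 0.05, and their median change was 0.17. The backgrounds were 2.3% called higher, 3.46% called lower and 7.99% at limma p under 0.05. Eef1b2, an exchange factor for Eef1a, was the most abundant at 5055, 4680.3 and 2560.2 in the control libraries and 6431, 7837 and 4757 in the injured libraries. Among 13 other TOP mRNAs 0 were called or passed at limma p under 0.05, beside the same backgrounds (median -0.10). Tpt1, one of the most abundant TOP mRNAs, was at 18526, 16692 and 11492 in the control libraries and 19996, 16556 and 12857 in the injured libraries, and Npm1, a nucleolar chaperone, at 3965, 3799 and 2245 in the control libraries and 6678, 8876 and 4011 in the injured libraries with a change of 0.94 ± 0.48 (SE; limma adjusted p = 0.655). Of 29 initiation factors, 1 was called higher and 1 lower, beside 2.3% and 3.46% of all genes tested. Eif3m, a subunit of the eIF3 complex, rose by 2.18 ± 0.68 (SE; limma adjusted p = 0.528), from 36.5, 37.1 and 25.2 to 65.4, 218 and 427. Eif2s3x, the X-linked eIF2 gamma subunit, fell by 1.76 ± 0.67 (SE; limma adjusted p = 0.6), from 77.96, 79.4 and 72.4 to 27.9, 0.926 and 40.5.

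No regulator or assembly factor of the lists was called. Of 16 genes of mTORC1 signalling and the LARP family and 26 of nucleolar assembly, 0 were called or passed at limma p under 0.05. Over all genes tested 2.3% were called higher and 3.46% lower, and 7.99% had a limma p under 0.05. In lists this short a count of 0 is therefore not a result about these genes. Ncl, which encodes nucleolin, was the most abundant of these, at 6665, 7734 and 4579 in the control libraries and 6046, 5936 and 4898 in the injured libraries. The median pair changes of the nucleolar list were -0.26, -1.53 and 0.42. Of 78 mitochondrial ribosomal protein genes, the counterparts in the organelle, 1 was called higher and 2 lower (the same backgrounds), and the median pair changes were -0.50, -1.28 and 0.87. Mrpl45 fell by 2.51 ± 0.67 (SE; limma adjusted p = 0.466) on the log2 scale, from 674, 312 and 416 to 199, 8.02 and 123. The typical level of these genes was far lower, with a median of 7.49 in the shallow library where 1316 was the median of the cytosolic members. The difference between the lists was not tested.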

How the data were processed

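Per the labels and the study's methods, QuantSeq 3' libraries of sorted cells were sequenced on an Ion Proton. The authors trimmed the reads, aligned them to GRCm38 (mm10, Ensembl 90) with STAR and BRB-seqtools, counted them per gene and normalized with DESeq2. They deposited log2 normalized values, in which all genes at the floor share 1 lowest value. Here these values were taken as a variance stabilizing transformation of the counts, with that lowest value as 0 reads. Inverting that transformation gave normalized counts, and the size of 1 read was recovered for each library from the low values. Whole reads were recovered for 35 of 92 members only (within 0.02 reads), so no count model was run.

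Identifiers were matched to GENCODE M21 (22453 of 22483). The deposited log2 values were tested with limma 3.58.1 in R 4.3.3 with an additive model of subpopulation and state (prior degrees of freedom 4.11, residual 2), after a filter that kept genes whose 80th percentile of the linear value was at least 8, which left 15532. Tests were two-sided, with Benjamini-Hochberg adjustment across all 15532 genes. The call was p under 0.05 and 3-fold, after the legend of the study's gene table. With 1 library per subpopulation and state no interaction could be fitted. Near-identical 3' ends were found with BLAST 2.17.0. Other computing used Python 3.11.15 with pandas 2.3.3 and scipy 1.17.1. The script was tested on simulated data.

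The members and gene lists were chosen with earlier results of these data known. Named members are those called with injury, the 10 highest, the paralogs, the 5 farthest above and below the median change, up to 4 with the smallest p in each subpopulation contrast and the 3 largest folds each way in each pair. Rpl11, Rps2, Rps3, Rpl28, Rpl30, Rpl9, Rpl37, Rps12, Rps18, Rps21, Rps27, Rpl24, Rpl36, the pseudogene symbols and their parents were named with their values in view. Some genes that these rules name are not reported here. Alternatives covered the pseudocount, filter, scaling, variance prior and block, and each pair was left out in turn. A restriction to genes on whole reads was added after seeing the data.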

Additional observations from a re-analysis of the deposited data

Results flagged for a closer look

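The share of counts held by the members moved in opposite directions in the subpopulations. Injured over control, the ratio was 0.9281 among CD140a(-)/Sca1(+) cells, 1.006 among CD140a(+)/Sca1(-) cells and 1.264 among CD140a(+)/Sca1(+) cells. With 1 library per subpopulation and state this difference was not tested. The ratios were 0.974, 0.963 and 1.34 with genes on whole reads alone.

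Rps12-ps3, annotated as protein coding under a pseudogene symbol, was at 0, 25.7 and 15.01 in the control libraries and 79.96, 0 and 19.6 in the injured libraries, or 0, 40 and 17 reads and then 547, 0 and 37 reads. Its log2 changes within the pairs, 3.95, -2.63 and 0.25, had opposite signs and reached 3-fold in both directions. The difference was not tested, and both listed zeros stand at the floor of the scale in these changes. The 3' end of Rps12-ps3 is shared with 15 other annotated genes, Rps12 among them, so reads could be split between these genes. Rps12 itself was at 706, 518 and 317 in the control libraries and 723, 1145 and 714 in the injured libraries, higher after injury in each pair.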

How the results depend on the processing

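The injury comparison called 1 member, and 0 with a pseudocount of 1 or 0.5, with scaling to equal totals and without moderation, 2 with a trend in the prior and 3 with quantile normalization. With genes on whole reads alone it called 0, but that set does not contain Rps14, the member called. Leaving out 1 pair gave 0 to 2 (0 without CD140a(-)/Sca1(+), 1 without CD140a(+)/Sca1(-), 2 without CD140a(+)/Sca1(+)). Without the replicate block the count was 1. Deviations of same-numbered libraries correlated at 0.0662, -0.00489 and -0.0121 over 15532 genes, which cannot show whether libraries of a pair also share animals. In the subpopulation contrasts 4 members were called, 2 with a pseudocount of 1, 1 with a pseudocount of 0.5, 2 without moderation, 6 with quantile normalization, 5 with a filter on normalized counts or a trend in the prior, 3 with no filter, and 0 to 4 with 1 pair left out. With genes on whole reads alone 3 were called, in a set that does not contain Rpl26. In CD140a(+)/Sca1(+) the count of 3 became 1 with a pseudocount of 0.5 and 1 to 4 with 1 pair left out. With a trend in the prior Rpl26 had a limma adjusted p of 0.00495. The cause was not tested. The median member change ranged from -0.15 to 0.25 and changed sign without the CD140a(+)/Sca1(+) pair; that of all genes was -0.33 and became 0.0044 with quantile normalization. Of 275 alternatives for 22 gene results, 240 left call and direction as they were, 19 lost a call, 14 gained one and 2 changed sign: Rpl22l1 ranged from -1.89 to 0.27 for injury, and Rpl26 from -2.88 to 0.037 in CD140a(-)/Sca1(+), with 1 pair left out. The median share ratio (0.956 to 1.14) and the 17 members at 3-fold within a pair (16 to 19) moved little. The injured CD140a(+)/Sca1(-) library limits members at low counts: 6 members are listed at 0 there. In the control CD140a(+)/Sca1(+) library, of similar depth, 2 members are.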
